A study of Mus musculus with 12 samples.

Results

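The MYC-MAX-MXD network was followed through the 10 member genes Myc, Mycn, Max, Mxd1, Mxd3, Mxd4, Mxi1, Mnt, Mlx and Mga, taken by symbol from the 24421 genes of the count table. The RNA-seq libraries came from B6 mouse embryonic stem (mES) cells grown in 2i+LIF, a medium that holds them in the naive pluripotent state. Every library, controls included, carries the genotype Brg1 dTag knock in, in which a degron on BRG1, the main ATPase of the mSWI/SNF chromatin remodelers in these cells, lets the small molecule dTAG13 send the protein to the proteasome. Controls received no dTAG13 (0 nM), and the other groups received 0.3, 1, 3, 10 or 100 nM for 24 h, with 2 libraries in each of the 6 groups and 12 in all. The tagged line was raised from picked colonies of single cells and grown on gelatin without feeder cells. The study describes its expression values as coming from independent experiments, while the labels name no separate cultures, and the p-values measure the spread between these libraries. The comparisons ask how the transcripts of the network respond as BRG1 dosage is lowered step by step.

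MYC and its paralog MYCN are basic helix-loop-helix leucine zipper factors that bind DNA only with their partner MAX, at E-boxes with the core CACGTG, and recruit histone acetyltransferases. The MXD proteins (MXD1, MXI1, MXD3 and MXD4) and MNT compete for MAX, bind the same sites and recruit SIN3-HDAC corepressors. MGA pairs with MAX inside the Polycomb complex PRC1.6, which keeps meiotic and germline genes silent in ES cells, and MLX pairs with the glucose-sensing factors MLXIP and MLXIPL as well as with some MXD proteins and MNT. In naive ES cells MYC activity is known for sustaining growth and biosynthesis.

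The E-box was searched as CACGTG, which reads the same on both strands, in the RefSeq promoter windows of build GRCm38.p6, from 250 bases before to 50 bases after a transcription start. It was present in the windows of 2187 of 27025 genes (8.09%). Of the 9 members with a window, 4 held it, namely Max, Mxd4, Mnt and Mlx. Myc had no window, and the windows of Mycn, Mxd1, Mxd3, Mxi1 and Mga did not hold these letters. The 4 sites are shown because they hold, in genes of the network, the core sequence that the network's dimers are known to bind. Each is given 5′ to 3′ on the strand of the gene in a stretch of 30 bases, with the E-box in capitals.
Max, chr12:76962234-76962263, minus strand: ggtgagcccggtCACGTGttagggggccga
Mnt, chr11:74830789-74830818, plus strand: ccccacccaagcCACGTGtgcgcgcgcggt
Mlx, chr11:101087238-101087267, plus strand: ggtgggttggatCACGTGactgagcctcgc
Mxd4, chr5:34187912-34187941, minus strand: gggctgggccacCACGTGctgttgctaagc
In Max the site starts 3 bases before the transcription start and in Mlx 40 bases before it, while in Mnt and Mxd4 it lies 123 and 219 bases before. A match is a description of the sequence and was not tested as a binding site.

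The libraries held between 4663484 and 6375582 counted read pairs, and the ribosomal precursor Rn45s took 10.5% to 19.4% of them. Levels are given as RPKM, the read pairs per kb of exon and per library size, with library sizes scaled by edgeR's TMM factors. Transcripts of Smarca4, the gene of BRG1, stood at 64.2 and 63.5 RPKM at 0 nM and at 71.3 and 71.2 RPKM at 100 nM (1.12-fold higher, adjusted p = 0.0389). The degron acts on the BRG1 protein, so this transcript does not check the labels. Its paralog Smarca2 lay between 0.377 and 1.24 RPKM in all 12 libraries. All 8 naive ES cell markers (Pou5f1, Nanog, Klf4 and others) were at 1 RPKM or more in every group, and their summed level was 2060 to 2081 RPKM at 0 nM and 1829 to 1872 RPKM at 100 nM. The markers did not all move with this sum. By the test described below, 2 were higher and 4 lower at 100 nM, with a median log2 fold change of -0.02. Between 0 and 100 nM the mean of Nanog went from 229 to 329 RPKM and that of Klf4 from 86.6 to 105 RPKM. Over the same doses Pou5f1 went from 573 to 507 RPKM and Dppa5a from 798 to 570 RPKM. Tfcp2l1 had the largest fall of the 8 on the log2 scale (-0.64), from 131 to 84.0 RPKM. The 6 fibroblast (feeder) markers and the 5 primitive endoderm markers each had a mean under 1 RPKM in every group, and summed to 1.16 to 1.40 and 1.598 to 2.17 RPKM at 0 nM and to 1.67 to 2.22 and 2.02 to 2.35 RPKM at 100 nM. The summed level of the 5 trophectoderm markers was 13.1 to 16.1 RPKM at 0 nM and 22.3 to 22.7 RPKM at 100 nM, and that of the 8 primed and germ layer markers was 57.4 to 57.6 and 72.0 to 76.1 RPKM. Both lists hold Eomes, and 4 of the 8 reached a mean of 1 RPKM at 0 and at 100 nM. At 100 nM 3 of the 5 and 3 of the 8 were called higher and 0 lower, where 10.1% of all tested genes were called higher. Of the defining markers, Fgf5 had no count in either control library. These sums differed between 0 and 100 nM, the primed and germ layer sum was highest with 3 nM (84.4 to 89.9 RPKM), and their part in the results below was not tested. In bulk RNA fewer cells with a transcript and less transcript per cell cannot be told apart. In the labels, the sample numbers of the 0, 1, 10 and 100 nM libraries form one run and those of the 0.3 and 3 nM libraries form another, so between these sets of doses the run and the condition cannot be told apart.

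Without dTAG13 the network was led by Mga and the MYC genes. Per length, Mga stood at 41.6 ± 1.51 RPKM (SD, n = 2, as for all levels below), Mycn at 30.4 ± 1.12, Myc at 24.1 ± 0.326, Max at 19.7 ± 0.338 and Mlx at 16.9 ± 0.764 RPKM. The antagonists were lower, with Mnt at 6.58 ± 0.379, Mxd3 at 4.88 ± 0.360, Mxi1 at 3.17 ± 0.184, Mxd1 at 1.01 ± 0.0890 and Mxd4 at 0.851 ± 0.0324 RPKM. In the control libraries no neighbours in this order overlapped, although Mxd4 rested on 6 counts in each library and Mxd1 on 29 and 27. At 100 nM the order was Mycn (72.8 ± 0.521 RPKM), Myc (46.1 ± 2.54), Mga (41.0 ± 1.04), Max (25.8 ± 1.39), Mlx (17.1 ± 0.435), Mnt (7.91 ± 0.655), Mxd3 (6.59 ± 0.238), Mxi1 (3.19 ± 0.443), Mxd1 (0.811 ± 0.242) and Mxd4 (0.556 ± 0.390). Among neighbours at 100 nM, the libraries of Mxd1 and Mxd4 overlapped and those of the other pairs did not. Both MYC genes thus lay above Mga at 100 nM and below it at 0 nM.

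**Figure D1:**
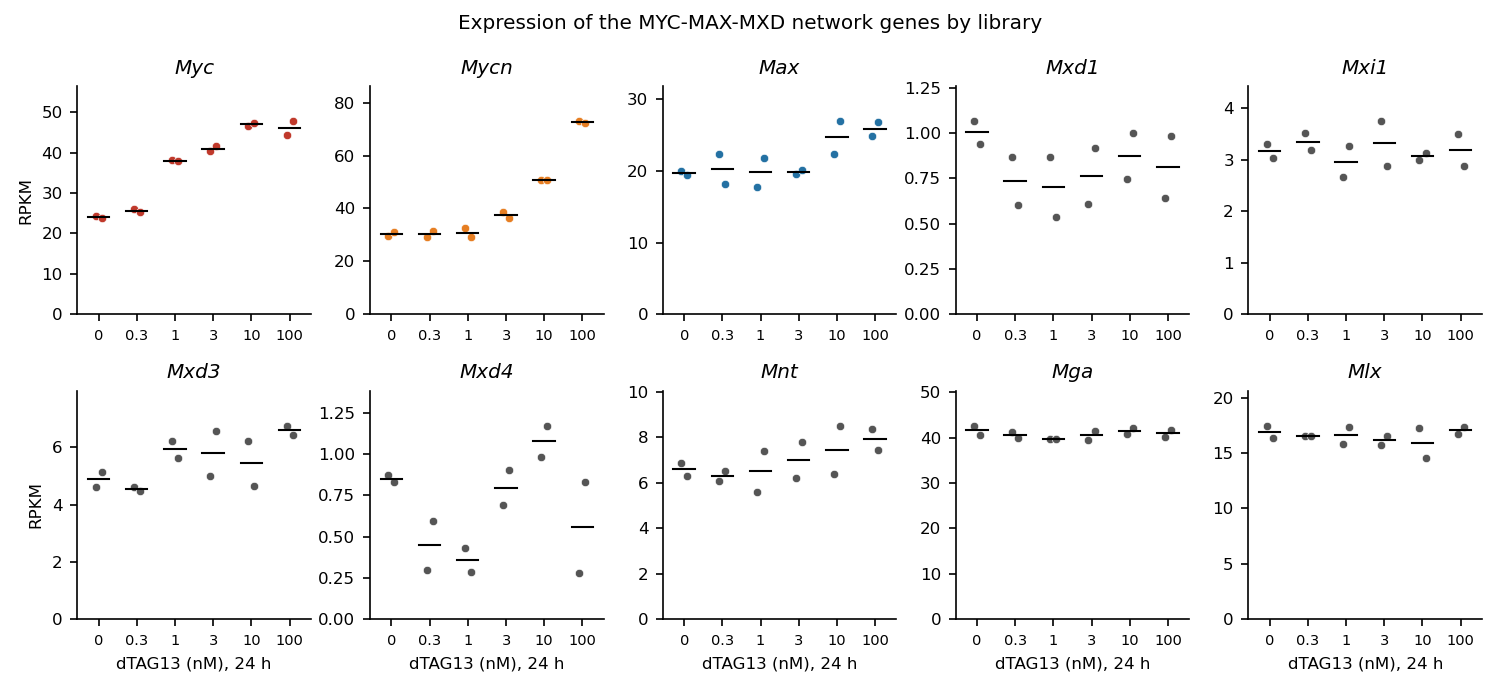
Expression in RPKM (vertical axes, from 0, each panel with its own scale) of the 10 members by dTAG13 dose in nM (horizontal axes), where each point is a library and each bar the mean of 2. The mean of Myc is 24.1 RPKM at 0 nM and 46.1 RPKM at 100 nM and that of Mycn 30.4 and 72.8 RPKM, while Mga stays between 39.5 and 42.7 RPKM in every library.

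Myc lies on mm10 chromosome 15 from 61985341 to 61990361, on the plus strand. Its 2 control libraries stood at 24.3 and 23.9 RPKM and those of 0.3 nM at 25.9 and 25.2 RPKM. The libraries of 1 nM gave 38.2 and 38.0 RPKM and those of 3 nM 40.4 and 41.7 RPKM. With 10 nM the level was 46.7 and 47.4 RPKM, and with 100 nM it was 44.3 and 47.9 RPKM. From 1 nM on, every treated library lay above every library of 0 and 0.3 nM, and the 10 and 100 nM libraries overlapped each other. Between 0 and 100 nM, the libraries did not overlap for 61.7% of the genes tested below. The tests used edgeR's quasi-likelihood F-test on the 11378 genes whose mean reached 1 RPKM, and a gene was called where the Benjamini-Hochberg adjusted p was under 0.05. Against 0 nM, Myc was 1.58-fold higher at 1 nM (log2 fold change 0.66, standard error 0.082, adjusted p = 2.33e-05), where 0.773% of the tested genes were called higher. It was 1.70-fold higher at 3 nM (adjusted p = 4.37e-07) and 1.95-fold higher at 10 nM (adjusted p = 2.94e-09). At 100 nM it was 1.91-fold higher, with a 95% interval of 1.70 to 2.15 (log2 fold change 0.94, standard error 0.081, adjusted p = 1.73e-09). At 0.3 nM the log2 fold change was 0.09 with an adjusted p of 0.894.

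Most of the distance in Myc was covered by 1 nM. From 0.3 to 1 nM it rose by a log2 step of 0.57 (adjusted p = 0.00158), a step over which 0.0352% of tested genes were called higher. This step crosses the runs of sample numbers, so run and dose cannot be told apart in it. The call was lost when any of the 4 libraries of this step was left out (0.3 nM replicate 1 or 2, 1 nM replicate 1 or 2). With each library left out in turn, the step ran from 0.54 to 0.59. The later neighbouring steps were 0.11 from 1 to 3 nM (adjusted p = 0.722) and 0.20 from 3 to 10 nM (adjusted p = 0.382). From 10 to 100 nM the step was -0.03, with a 95% interval of -0.19 to 0.13 (adjusted p = 0.933), whose upper bound is under the step of 0.57 between 0.3 and 1 nM. The step from 10 to 100 nM lies within one run of sample numbers, and so does the comparison of 10 with 1 nM, added after the data were seen, in which Myc was higher by 0.31 (adjusted p = 0.0153). That call was lost without 1 nM replicate 1, without 1 nM replicate 2 and without 10 nM replicate 2. With each library left out in turn, the log2 fold change ran from 0.30 to 0.32. Between 3 and 0.3 nM, the doses of the other run, Myc was higher by 0.68 (adjusted p = 7.22e-06).

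Within 1000 kb of Myc the table held a few other genes. Pvt1, a long noncoding RNA whose locus starts 47.6 kb after Myc, had a log2 fold change of -0.03 at 100 nM (adjusted p = 0.927), and H2afy3, 227 kb away, had 0.46 (adjusted p = 0.402). The neighbour D030024E09Rik had 10 counts over the 12 libraries and was under the filter. Neither of the tested neighbours was called at 100 nM.

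Mycn, which takes the place of Myc in many embryonic tissues, lies on chromosome 12 from 12936093 to 12941836, on the minus strand. Its control libraries stood at 29.6 and 31.2 RPKM, those of 0.3 nM at 29.3 and 31.4 RPKM, and those of 1 nM at 32.5 and 29.2 RPKM. With 3 nM its level was 38.7 and 36.5 RPKM, with 10 nM 50.7 and 50.9 RPKM, and with 100 nM 73.2 and 72.4 RPKM. The libraries of the 3 lowest doses overlapped, and each higher dose lay clear of all lower ones. A gap between 0 and 100 nM was found for 61.7% of tested genes. Against 0 nM, Mycn was 1.24-fold higher at 3 nM (log2 fold change 0.31, adjusted p = 0.0149), where 4.15% of tested genes were called higher and 2 members were. This call was lost without 0 nM replicate 1, without 0 nM replicate 2 and without 3 nM replicate 1. With each library left out in turn, the log2 fold change ran from 0.27 to 0.35. Mycn was 1.67-fold higher at 10 nM (adjusted p = 1.32e-07) and 2.40-fold higher at 100 nM, with a 95% interval of 2.15 to 2.68 (log2 fold change 1.26, standard error 0.077, adjusted p = 3.23e-12). At 1 nM, where Myc was already called, the log2 fold change of Mycn was 0.02 with a 95% interval of -0.15 to 0.19 (adjusted p = 0.943).

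The steps of Mycn fell at the other end of the dose range. From 3 to 10 nM it rose by a log2 step of 0.43 (adjusted p = 0.0038), over which 0.167% of tested genes were called higher. That call was lost without 3 nM replicate 2, and with each library left out in turn the step ran from 0.39 to 0.47. The step from 3 to 10 nM also crosses the runs of sample numbers. From 10 to 100 nM Mycn rose by 0.52 (adjusted p = 9.58e-05), where 0.615% of tested genes were called higher, and this call held whichever library was left out. From 1 to 3 nM the step was 0.28 (adjusted p = 0.157), with 0.176% of tested genes called higher and 0 members by edgeR's quasi-likelihood test, its likelihood ratio test or DESeq2, and 1 member (Mycn) at an unadjusted p under 0.05. From 10 to 100 nM the step of Myc and that of Mycn had 95% intervals that did not meet, -0.19 to 0.13 for Myc and 0.37 to 0.67 for Mycn, though the difference between the steps of 2 genes was not tested. Within one run of sample numbers, 10 against 1 nM gave 0.72 for Mycn (adjusted p = 8.58e-07) and 3 against 0.3 nM gave 0.31 (adjusted p = 0.0251). The last call was lost when any of its 4 libraries (0.3 nM replicate 1 or 2, 3 nM replicate 1 or 2) was left out. With each library left out in turn, its log2 fold change ran from 0.26 to 0.35. In these comparisons 2.55% and 2.43% of tested genes were called higher.

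**Figure D2:**
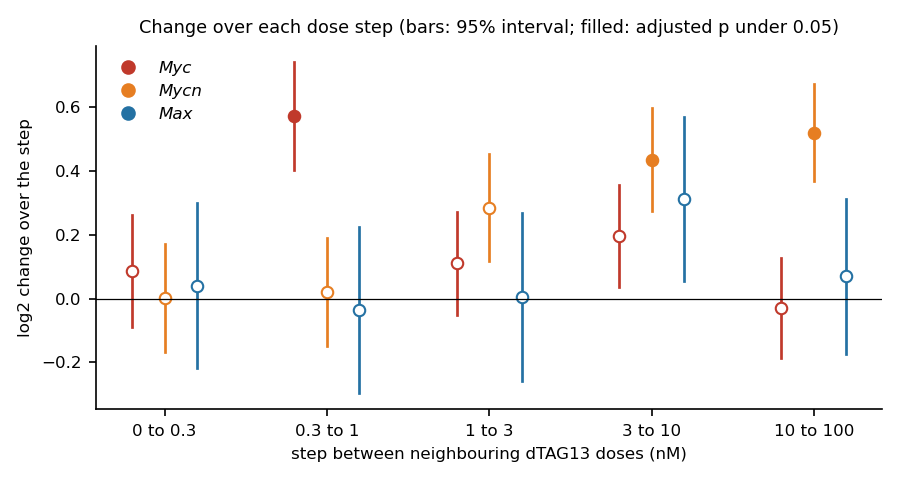
Log2 change of Myc, Mycn and Max (vertical axis) over each step between neighbouring dTAG13 doses in nM (horizontal axis), with 95% intervals as bars and filled points where the adjusted p was under 0.05. The filled point of Myc is at the step from 0.3 to 1 nM (0.57), and those of Mycn are at the steps from 3 to 10 nM (0.43) and from 10 to 100 nM (0.52). Only the step from 10 to 100 nM lies within one run of sample numbers.

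Summed over both genes, Myc and Mycn transcripts were 54.5 ± 0.795 RPKM at 0 nM and 119 ± 2.02 RPKM at 100 nM. In the controls Myc made up 44.3% ± 1.24 of that sum, and after 1 nM dTAG13 it made up 55.3% ± 1.81. Its share was then 52.2% ± 1.62 with 3 nM, 48.1% ± 0.173 with 10 nM and 38.8% ± 1.48 with 100 nM. Myc was thus the larger part of the sum in the 1 and 3 nM libraries and the smaller part in the libraries of the other 4 conditions. These shares are a description of transcript levels per length, with no test, and say nothing of the proteins.

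Max, the obligate partner, lies on chromosome 12 from 76937269 to 76962248, on the minus strand. Its control libraries stood at 19.96 and 19.5 RPKM. The libraries of 0.3, 1 and 3 nM ran from 17.7 to 22.3 RPKM around them, those of 10 nM stood at 22.3 and 27.0 RPKM, and those of 100 nM at 24.9 and 26.8 RPKM. The 10 nM libraries were far apart, and both 100 nM libraries lay above every library of 0 to 3 nM. Between 0 and 100 nM, 61.7% of tested genes did not overlap. Max was called at 100 nM, 1.31-fold higher with a 95% interval of 1.10 to 1.56 (log2 fold change 0.39, standard error 0.12, adjusted p = 0.0199). With each library left out in turn, this log2 fold change ran from 0.33 to 0.44. The adjusted p ran from 0.00506 to 0.155 over the alternative settings, and the call was lost without 0 nM replicate 1, without 0 nM replicate 2, without 100 nM replicate 2, with DESeq2, without the filter on low values and with a minimum of 1.5-fold. At 10 nM the log2 fold change was 0.32 with an adjusted p of 0.0718, which was 0.0303 without 10 nM replicate 1. The ratio of Max to summed Myc and Mycn RPKM was 0.362 ± 0.0115 at 0 nM and 0.217 ± 0.00801 at 100 nM, with no test.

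The antagonists Mxd1, Mxi1, Mxd3, Mxd4 and Mnt were not called at any dose or over any step. Mnt, the most abundant of them, stood at 6.85 and 6.32 RPKM at 0 nM and at 8.38 and 7.45 RPKM at 100 nM. Those groups did not overlap, as was so for 61.7% of tested genes at that dose, and the log2 fold change of 0.27 had a 95% interval of -0.04 to 0.57 (adjusted p = 0.209). Over the rank of the dose its slope was 0.06 per step (adjusted p = 0.0648), which passed 0.05 without 0 nM replicate 1, without 10 nM replicate 1 or without normalization factors (0.0305 the lowest). Mxd3, which is tied to proliferating cells, ranged from 4.46 to 6.76 RPKM over the 12 libraries, with a log2 fold change of 0.43 at 100 nM (95% interval -0.08 to 0.94, adjusted p = 0.23). Mxi1 ranged from 2.67 to 3.76 RPKM, with 0.01 at 100 nM (95% interval -0.33 to 0.36, adjusted p = 0.981).

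Mxd1, an antagonist known from differentiating cells, and Mxd4 fell under the filter of 1 RPKM and were tested in a fit of the 23204 genes with at least 1 count, in which 4.08% of the genes under the filter were called at 100 nM. Mxd1 had 14 to 29 counts per library, with 29 and 27 at 0 nM and 18 and 28 at 100 nM (adjusted p = 0.531). Mxd4 had 2 to 8 counts, near the floor of 3 counts per library, with 6 and 6 at 0 nM and 2 and 6 at 100 nM (adjusted p = 0.656). Against 0 nM, the 95% interval at 100 nM was 0.481-fold to 1.22-fold for Mxd1 and 0.207-fold to 1.90-fold for Mxd4. Changes within these intervals are not excluded at this depth. The exons of Mxd3, Mxi1 and Mxd4 overlap a gene on the opposite strand (Prelid1 by 105 bases, Gm10197 by 194 and Gm42846 by 514). The strand was not used in counting, so reads in the shared bases can make their values too high or too low.

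Mga, the MAX partner of PRC1.6, was the most deeply counted member with 2710 to 3554 counts per library. It ranged from 39.5 to 42.7 RPKM over the 12 libraries, and its log2 fold change at 100 nM was -0.02 with a 95% interval of -0.13 to 0.09 (adjusted p = 0.814). Of the members it had the narrowest interval at this dose, from 0.914-fold to 1.06-fold. Mlx ranged from 14.5 to 17.5 RPKM, with 0.01 at 100 nM (95% interval -0.23 to 0.25, adjusted p = 0.963), and it shares 385 exon bases with Psmc3ip on the opposite strand. Neither gene was called at any dose.

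Over the whole network, the number of the 10 members called higher went from 0 and 1 with 0.3 and 1 nM to 2 with either 3 or 10 nM and 3 with 100 nM. The shares of all tested genes called higher were, in the same order of the 5 doses, 0%, 0.773%, 4.15%, 7.87% and 10.1%. These shares rest on the control libraries, and without 0 nM replicate 2 the genes called in either direction at 1, 3, 10 and 100 nM were 85, 568, 1262 and 1769 in place of 261, 1069, 2040 and 2662. Without 0 nM replicate 1 they were 91, 582 and 1287 at 1, 3 and 10 nM, without 1 nM replicate 1 or 2 they were 94 and 61 at 1 nM, and without 3 nM replicate 2 they were 690 at 3 nM. At 0.3 nM neither the quasi-likelihood test, the likelihood ratio test nor DESeq2 called a member, and 0 members had an unadjusted p under 0.05. No member was called lower at any dose by edgeR's quasi-likelihood test, its likelihood ratio test or DESeq2, and 0 were lower at an unadjusted p under 0.05, while 0.0703%, 1.52%, 5.25%, 10.1% and 13.3% of tested genes were called lower in the same order of doses. In one test of a slope over the rank of the dose, 3 members rose, where 13.6% of tested genes did. These were Mycn at 0.26 (log2) per step (adjusted p = 2.4e-08), Myc at 0.21 (adjusted p = 4.19e-08) and Max at 0.08 (adjusted p = 0.00688). The median log2 fold change of the 10 members at 100 nM was 0.14, and that of all tested genes was 0.

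**Figure D3:**
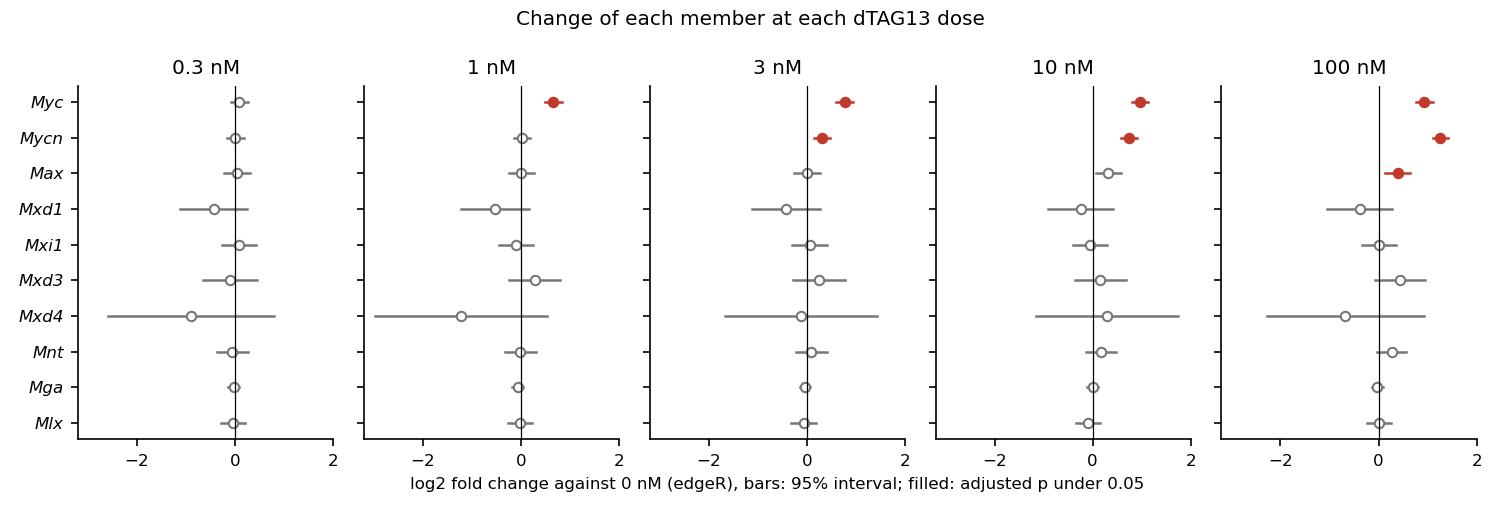
Log2 fold change of each member against 0 nM (horizontal axes) at each dTAG13 dose (panels), with 95% intervals as bars and filled points where the adjusted p was under 0.05. Myc is filled from 1 nM on, Mycn from 3 nM on and Max at 100 nM, and the wide bars of Mxd1 and Mxd4 go with their low counts.

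The balance between repressive and activating partners was described by summed RPKM in each library. The 5 antagonists summed to 16.5 ± 0.324 RPKM at 0 nM and to 19.1 ± 0.704 RPKM at 100 nM. Their ratio to Myc plus Mycn was 0.310 and 0.296 in the control libraries. The libraries of 0.3 nM had 0.278 and 0.271, those of 1 nM 0.223 and 0.255, and those of 3 nM 0.206 and 0.244. It came to 0.178 and 0.188 with 10 nM and to 0.167 and 0.154 with 100 nM. Only the 1 and 3 nM libraries overlapped. The ratio contains Myc and Mycn, so it repeats their rise and is no separate result.

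**Figure D4:**
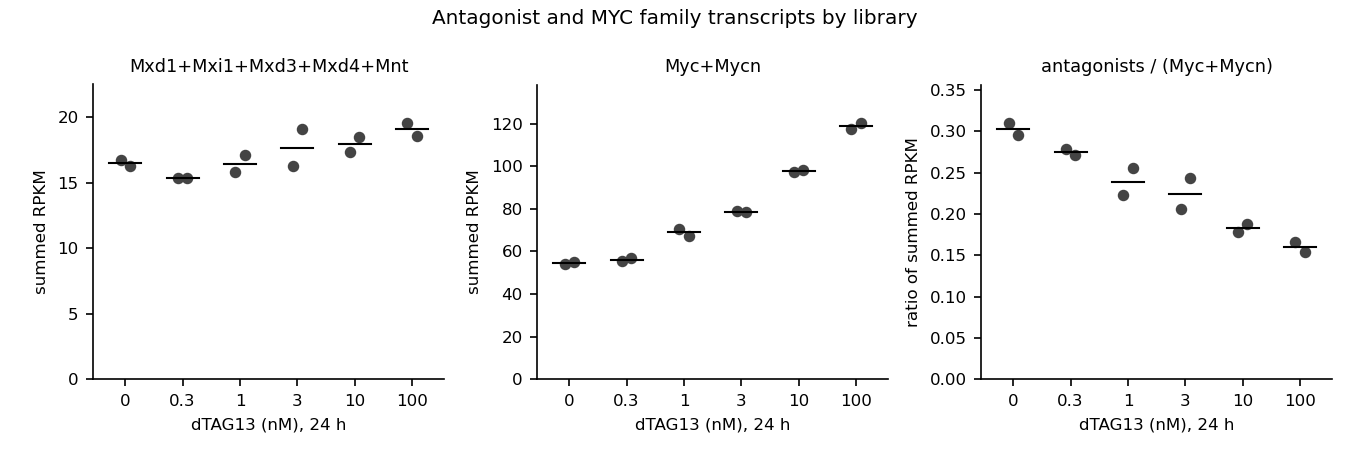
Summed RPKM of the antagonists Mxd1, Mxi1, Mxd3, Mxd4 and Mnt, summed RPKM of Myc and Mycn, and the ratio of the first to the second (vertical axes, from 0) by dTAG13 dose in nM, where each point is a library and each bar the mean of 2. The antagonist sum runs from 16.5 to 19.1 RPKM between 0 and 100 nM, the MYC sum from 54.5 to 119 RPKM, and the ratio from 0.303 to 0.160.

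Outside the members, the remaining genes of the extended network all changed at 100 nM, where 23.4% of tested genes were called in either direction. Mycl, the third MYC family gene, fell by 1.09 on the log2 scale (standard error 0.18, adjusted p = 4.2e-05), from 6.79 ± 1.32 to 3.19 ± 0.416 RPKM, opposite to Myc and Mycn. Mlxip, the partner of MLX also called MondoA, rose by 0.64 (adjusted p = 2.37e-05), from 6.57 ± 0.262 to 10.2 ± 0.150 RPKM. Mlxipl, the carbohydrate-responsive partner of MLX also called ChREBP, rose by 1.94 (standard error 0.35, adjusted p = 0.000178) from a low level of 0.619 ± 0.0559 RPKM, with 27 counts in the control libraries together and 106 at 100 nM. At 10 nM the same 3 genes were called with log2 fold changes of -0.67, 0.48 and 1.48, where 7.87% of tested genes were called higher and 10.1% lower. The promoter window of Mlxipl holds an E-box 98 bases before the start, shown because this gene had the largest rise of these 3. It was not tested as a binding site.
Mlxipl, chr5:135089780-135089809, plus strand: gcggctgccatcCACGTGctaaggagagaa

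The lists around the network, described next by counts at 100 nM, are read against the 10.1% of all tested genes called higher, the 13.3% called lower and the 23.4% called in either direction, and a share near these is no result about a list. Cofactors of the network moved in both directions. Of 10 genes of MYC coactivators, 4 rose and 2 fell at 100 nM. Among them were Ruvbl1, a subunit of the TIP60 complex, from 125 ± 0.685 to 157 ± 3.46 RPKM (log2 fold change 0.33, adjusted p = 0.000111), and Actl6a, the actin-related subunit that TIP60 shares with mSWI/SNF (0.31, adjusted p = 0.00134). Wdr5, which helps MYC onto chromatin, fell by 0.54 on the log2 scale (adjusted p = 2.06e-06), from 63.7 ± 1.89 to 43.9 ± 3.64 RPKM, and the acetyltransferase gene Crebbp fell by 0.19 (adjusted p = 0.0395). Without 0 nM replicate 2, or without 100 nM replicate 1, 3 coactivator genes were called in place of 6. Of 11 genes of MXD and MNT corepressors, 3 rose and 4 fell. The SIN3 subunit gene Sap30 rose by 0.46 (adjusted p = 0.000379) and Zbtb17 by 0.39 (adjusted p = 0.016), which stands in this list although its product MIZ1 is known as a partner through which MYC represses, whereas the deacetylase gene Hdac2 fell by 0.42 (adjusted p = 0.000555). Leaving out 0 nM replicate 1, 0 nM replicate 2, 100 nM replicate 1 or 100 nM replicate 2 gave 4, 3, 4 and 4 called corepressor genes in place of 7. The medians of these lists were 0.11 and -0.01.

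Of 11 genes of MYC protein turnover in the table, 2 rose (the background was 10.1%), both for deubiquitinases that act on MYC. These were Usp28 (log2 fold change 0.49, adjusted p = 0.000105), from 19.8 ± 2.82 to 27.7 ± 0.275 RPKM, and Usp36 (0.49, adjusted p = 0.000134). Fbxw7, which encodes the ubiquitin ligase subunit that USP28 counteracts, had -0.11 (adjusted p = 0.459), and the list median was 0.06.

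Around MGA, 2 of 9 genes of its PRC1.6 partners rose at 100 nM, against the 10.1% of all tested genes, Rybp by 0.53 (adjusted p = 5.1e-05) and L3mbtl2 by 0.28 (adjusted p = 0.0029). Without 100 nM replicate 2, 1 of them was called. Of 10 germline genes known to be held down by MGA and MAX, 5 rose. The germline helicase Ddx4 rose by 0.80 (adjusted p = 1.33e-05), from 10.5 ± 1.14 to 18.2 ± 0.775 RPKM. The largest rises were those of the piRNA pathway genes Tdrkh (1.32, adjusted p = 0.0322) and Mael (1.11, adjusted p = 0.0102), at 0.633 ± 0.113 and 2.11 ± 0.00376 RPKM at 0 nM, and the synaptonemal complex gene Sycp1 and the germ cell RNA-binding gene Dazl rose by 0.66 and 0.53. At 1 nM the only one called was Ddx4 (0.51, adjusted p = 0.022), at 3 nM 5 were and at 10 nM 6 were. The shares of all tested genes called higher at these doses were 0.773%, 4.15% and 7.87%. The filter of 1 RPKM was passed by 8 of the 10, and the others were tested in the fit of all genes with a count. The counts at 1, 3 and 10 nM were not recomputed with libraries left out. Of the genes called at 100 nM, Mael and Tdrkh rest on few reads (39 and 20 counts in the control libraries together), and the count of 5 was 1 without 0 nM replicate 1, 3 without 0 nM replicate 2, 3 without 100 nM replicate 1 and 2 without 100 nM replicate 2. Mga itself was not called at any of these doses, and Max was called at 100 nM only. Of the 10 genes, 7 hold the E-box in a promoter window (70%). Stk31, Taf7l, Sycp3 and Slc25a31 hold it and were not called, while Dazl and Tdrkh were called without it. With 100 nM, Stk31 (0.35, adjusted p = 0.136) and Taf7l (0.62, adjusted p = 0.446) leaned up on the log2 scale. Sycp3 (-0.78, adjusted p = 0.348) and Slc25a31 (-0.64, adjusted p = 0.571) leaned down. Whether the E-box goes with the rise was not tested. The sites of the 3 called genes that hold it are shown as the sequence MGA-MAX is known to read.
Ddx4, chr13:112652322-112652351, minus strand: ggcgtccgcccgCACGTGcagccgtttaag
Sycp1, chr3:102936177-102936206, minus strand: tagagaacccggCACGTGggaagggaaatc
Mael, chr1:166238950-166238979, minus strand: taccaggcctacCACGTGacaatccccgcc

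Genes known as MYC targets were followed in 3 lists. For ribosome biogenesis 1 of 10 rose at 100 nM, the nucleolar gene Nolc1 (log2 fold change 0.24, adjusted p = 0.00396), while leaving out 10 nM replicate 1 or 10 nM replicate 2 gave 2 called genes and leaving out 100 nM replicate 1 gave 0. For metabolism 3 of 10 rose and 1 fell. Spermidine synthase Srm rose from 89.7 ± 0.653 to 140 ± 3.45 RPKM (0.64, adjusted p = 8.12e-08), and the polyamine gene Odc1 and the pyrimidine synthesis gene Cad rose by 0.46 and 0.32, whereas hexokinase Hk2 fell by 0.46 (adjusted p = 1.14e-06), from 104 ± 2.79 to 75.7 ± 6.13 RPKM. At 1 nM, Srm (0.27, adjusted p = 0.036) and Odc1 (0.20, adjusted p = 0.0403) were the metabolic targets called, where 0.773% of all tested genes were called higher. For the cell cycle 1 of 7 was called, Tfap4, which fell by 0.72 (adjusted p = 0.000169). The medians of these 3 lists at 100 nM were 0.07, 0.06 and 0.03.

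Of 6 genes known to be repressed by MYC, 2 rose and 1 fell at 100 nM. The cyclin-dependent kinase inhibitor gene Cdkn1a rose by 0.39 (adjusted p = 0.00138), from 35.1 ± 1.35 to 46.1 ± 0.472 RPKM, and Ndrg1 rose by 1.05 (adjusted p = 0.032) from a level of 0.959 ± 0.241 RPKM. Cdkn1b, a relative of Cdkn1a, fell by 0.72 (adjusted p = 0.00125), from 9.40 ± 0.969 to 5.71 ± 0.771 RPKM. The list therefore moved in both directions, with a median of 0.32.

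The study lists its own MYC-target genes, of which 57 other than Myc were in the table. How they were selected is not known here, so their counts are not independent evidence of a direction. Of these 57, 12 rose and 2 fell at 100 nM, where 10.1% and 13.3% of all tested genes did, and the median was 0.09. The named extremes were Sord, a sorbitol dehydrogenase (0.99, adjusted p = 0.0451, at 1.49 RPKM at 0 nM), and Srm among those that rose, and Hk2 and the nucleolar gene Tcof1 (-0.22, adjusted p = 0.00428) among those that fell. At 1 nM, where Myc was already 1.58-fold higher, 2 of the 57 were called, both higher, as were 0.773% of all tested genes. Leaving out 0 nM replicate 1, 100 nM replicate 1 or 100 nM replicate 2 gave 8, 6 and 9 called genes in place of 14. The study's list shares 5 genes with the ribosome biogenesis list, 2 with the metabolism list, 1 with the cell cycle list and 1 with the PRC1.6 list, so these counts are not independent. Of the 52 with a promoter window, 15 hold the E-box (28.8%).

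**Figure D5:**
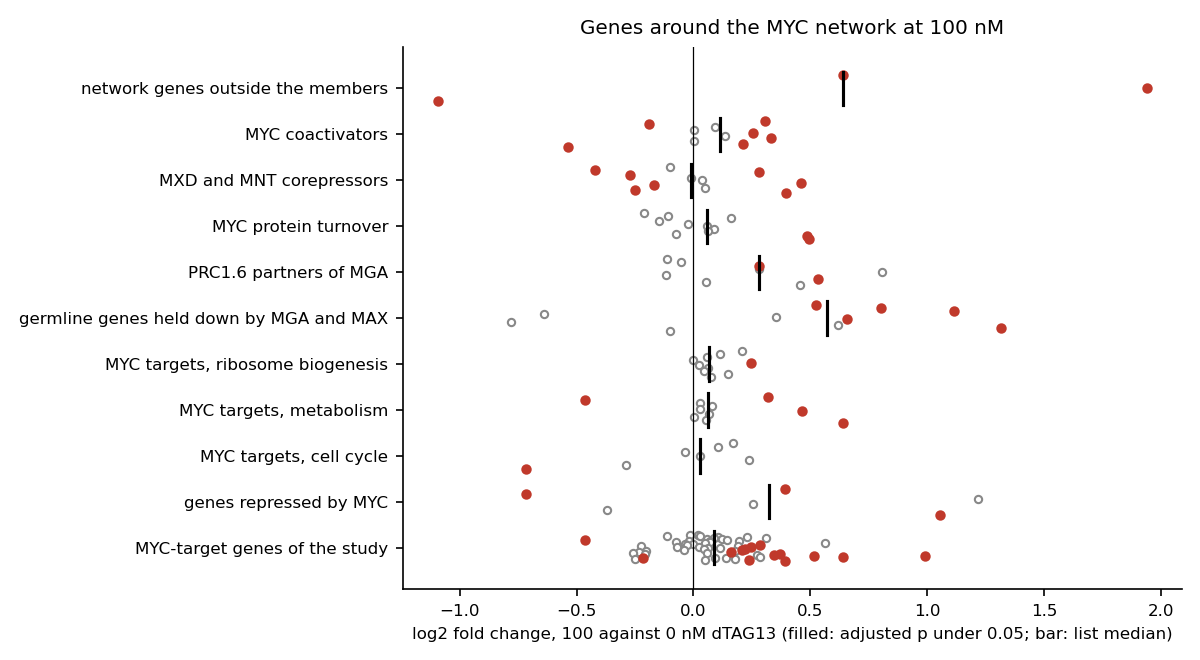
Log2 fold change at 100 nM against 0 nM dTAG13 (horizontal axis) of every gene in the table from the lists around the network (rows), with filled points where the adjusted p was under 0.05 and a bar at each list's median. Filled points lie on both sides of 0 in the coactivator, corepressor, metabolism and MYC-repressed lists, and on the right side in the turnover, PRC1.6 and germline lists.

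For each member called at 100 nM, the 3 genes most like it were taken by Pearson's r of log2(RPKM + 0.1) over the 12 libraries, among the 4123 tested genes whose condition means ranged over at least 0.5 (log2). For Myc these were Tmem43, an inner nuclear membrane protein (r = 0.972), Piezo1, a mechanosensitive channel (0.966), and Tet3, a 5-methylcytosine dioxygenase (0.963). For Mycn they were the neurofilament gene Ina (0.992), the PI3-kinase subunit gene Pik3cd (0.990) and the helicase gene Helz (0.981). For Max they were Hltf (0.898), Rasl11a (0.878) and Igf2bp2 (0.871), with lower values than for the MYC genes. The lists of Myc and Mycn shared no gene among these 3, while r between Myc and Mycn themselves was 0.743. So few picks from 4123 candidates cannot show whether the MYC genes differ in pattern. The 12 libraries share doses and depth, and the genes were picked as the highest of many, so these r values are a description.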

How the data were processed

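Total RNA was sequenced from the 12 libraries. The authors trimmed the reads with Trim Galore, aligned them to mm10 with HISAT2 and deposited the unscaled counts of read pairs on each gene symbol, made with featureCounts 2.0.1, per the file headers with both ends required, exons summed per gene and no strand setting, although the library kit marks strand. No normalization was applied to the deposited counts. Multi-mapped pairs are left out by this setting, and reads of overlapping genes cannot be told apart.

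Groups and doses were taken from the labels. RPKM was computed with TMM factors and the exon lengths given with the counts, and the 11378 genes whose mean reached 1 RPKM were tested with edgeR 4.0.16 in R 4.3.3 (quasi-likelihood test, one fit of all 6 conditions, Benjamini-Hochberg adjustment over all tested genes). A gene was called at an adjusted p under 0.05, without the 1.5-fold minimum of the study. Genes under this filter were tested in another fit of all 23204 genes that had any count. Neighbouring doses and a slope over the rank of the dose were tested in the same way. The biological coefficient of variation was 6.20%. Total counts of 4663484 to 6375582 per library make 3 counts, taken as the floor, equal to 0.488 to 0.609 RPKM for a gene of 1 kb, which covers counting error only. TMM would hide a change shared by the whole transcriptome.

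The members and gene lists were chosen with earlier results of these data known. All 10 members are named. Of each list around the network every called gene up to 4 is named, and otherwise the 2 that rose most and the 2 that fell most. One gene that this rule names is not reported here. For the germline list all 5 called genes are named. The 3 genes most like a called member, the tested genes within 1000 kb of Myc, and Smarca4 and Smarca2 are also named. Fbxw7 and D030024E09Rik were added after their values were seen. The lists of markers were those of naive, primed and germ layer, primitive endoderm, trophectoderm and fibroblast cells. Promoter windows came from RefSeq (GRCm38.p6), and gene overlaps from the GENCODE annotation of the same assembly. One gene of the turnover list was not matched in the table.

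The replicate numbers were checked for pairing. Across the 15 pairs of conditions the correlation of same-numbered deviations ran from -0.0948 to 0.0927, so no pairing by number was seen and no block was used. A small effect shared by same-numbered libraries could pass unseen in this check. Between the libraries of a group the chi-square per degree of freedom was 2.07 to 18.8, more than counting noise. On simulated counts of 11378 genes at 100 against 0 nM, 95% of 200 genes changed 3-fold and 70.5% of 200 changed 1.5-fold were called, with 20 of 10978 unchanged genes. The simulation gave every gene and group the same spread, so these shares do not measure the power in the real libraries. Alternatives were the likelihood ratio test, DESeq2 1.42.0, other scalings, no filter, the 1.5-fold minimum, pairwise fits, a replicate block, the 8 libraries of one run of sample numbers and leave-one-out fits for every library. The comparisons of 3 with 0.3 nM and of 10 with 1 nM were added after the data were seen.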

Additional observations from a re-analysis of the deposited data

How the results depend on the processing

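No called result changed direction in the settings tried. Myc at 1, 3, 10 and 100 nM, Mycn at 10 and 100 nM and the slopes of Myc, Mycn and Max passed the threshold in every setting in which they were computed. The counts of members and list genes that moved by more than 1.5 times, and then those of all tested genes, were these. With DESeq2's Wald test, 4 corepressor genes and 9 of the study's MYC targets were called at 100 nM, and 1 member at 3 against 0.3 nM. Without normalization factors, 4 corepressor genes were called, 0 members from 0.3 to 1 nM and from 3 to 10 nM, and 1 at 3 against 0.3 nM. Without the filter on low values, 1 member was called at 3 nM, at 3 against 0.3 nM and at 10 against 1 nM. With the 1.5-fold minimum, 1 member was called at 3 nM, at 3 against 0.3 nM and at 10 against 1 nM, and 0 over the steps from 0.3 to 1, 3 to 10 and 10 to 100 nM. With that minimum 0 coactivator, corepressor, turnover, PRC1.6 and ribosome biogenesis genes, 1 metabolic target and 2 of the study's targets were called. Pairwise fits gave 4 PRC1.6 genes, 2 ribosome biogenesis genes, 0 members from 3 to 10 nM and 1 at 3 against 0.3 nM. The 8 libraries of one run of sample numbers gave 4 PRC1.6 genes. Over all tested genes, 8, 261, 1069, 2040 and 2662 were called at 0.3, 1, 3, 10 and 100 nM. DESeq2's Wald test gave 132, 634 and 1307 at 1, 3 and 10 nM, no normalization factors gave 3 and 147 at 0.3 and 1 nM, no filter gave 36 at 0.3 nM, and the 1.5-fold minimum gave 2, 104, 444, 902 and 1274 over the 5 doses. The steps from 0.3 to 1, 1 to 3, 3 to 10 and 10 to 100 nM had 9, 56, 75 and 270 calls, which ranged from 0 to 53, 7 to 111, 5 to 118 and 94 to 390 over all settings. For 3 against 0.3 nM and 10 against 1 nM, 604 and 713 calls ranged from 209 to 848 and 289 to 850. The cause of these moves was not tested, apart from the minimum, which by its construction removes smaller folds.

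With each library left out in turn, the members called ran from 1 to 2 at 3 nM, from 0 to 1 from 0.3 to 1 nM and from 3 to 10 nM, and from 1 to 2 at 3 against 0.3 nM and at 10 against 1 nM. The genes called at 100 nM ran from 3 to 6 for coactivators, 3 to 7 for corepressors, 1 to 3 for PRC1.6, 1 to 5 for germline genes, 0 to 2 for ribosome biogenesis and 6 to 16 for the study's targets. Over all tested genes they ran from 1 to 14, 61 to 301, 568 to 1157, 1262 to 2135 and 1769 to 2830 over the 5 doses. Where that left 1 library in a condition, it was taken to vary like the others. A block for the replicate number gave 3 members called at 100 nM, 2 at 10 nM and at 3 nM, 1 at 1 nM and 0 at 0.3 nM, as without it, and moved no count by over 1.5 times. No pairing by these numbers was seen in the check described above. Depth limits Mxd1 and Mxd4 most, with 2 to 29 counts per library.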
